A study of Mus musculus with 24 samples.

Results

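The 566 mouse miRNAs of the Agilent microarray were compared between a pair of reference RNA pools. Members were all spots that the scanner files do not mark as controls and whose name starts with the mouse prefix, 566 of 576 named features on the array, in 4 of the 24 samples of the series. Reference 1 pooled total RNA of testis, ovary and embryo of day 10 to 12 in equal amounts (2 samples), and Reference 2 pooled total RNA of heart, lung and liver (2 samples). All stocks were commercial mouse total RNA that kept the small fraction, with no treatment and no strain given in the sources used here. The samples of a reference are aliquots of a single pool, so their spread, and every p-value based on it, is technical and says nothing of the spread between animals. Each sample was labelled with Cy3 and hybridized alone, and all 4 arrays lay on 1 slide. More arrays than these were run, and the study drew 2 of each reference at random for its analyses. Because each pool mixes 3 sources, a difference cannot be assigned to a tissue, and fewer cells of a type and less of a miRNA per cell cannot be told apart.

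A miRNA is a short RNA cut from a hairpin precursor, and it guides Argonaute proteins to messenger RNAs. Pairing rests mainly on its seed, bases 2 to 8 from the 5′ end, so that miRNAs with a common seed form a family with overlapping targets. Many hairpins lie together in the genome and are transcribed as a unit, and some miRNAs are strongly enriched in a single tissue, whereas families such as let-7 are found in most differentiated tissues.

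Several miRNAs on which the results turn are printed below with the seed in capitals, because shared seeds tie together members that moved alike and members that did not. The sequences and positions are those of RefSeq on GRCm38.p6, written 5′ to 3′. The names on the array are older than those of RefSeq, and 357 of 566 were matched, 140 by the same name and 217 through a guide arm assigned by hand from general knowledge and not checked against the probes. The seed groups and genomic groups given below hold matched names alone, so that some relatives and neighbours measured on the array are not counted in them.
let-7a: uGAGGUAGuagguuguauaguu
let-7f: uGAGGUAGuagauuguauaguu
let-7c: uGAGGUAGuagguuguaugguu
miR-15a: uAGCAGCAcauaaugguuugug
miR-15b: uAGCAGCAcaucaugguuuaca
miR-322: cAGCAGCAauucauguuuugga
miR-34a: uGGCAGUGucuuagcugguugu
miR-449a: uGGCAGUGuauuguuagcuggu
miR-192: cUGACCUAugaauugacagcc
miR-215: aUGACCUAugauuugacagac
miR-107: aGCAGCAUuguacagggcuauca
miR-103: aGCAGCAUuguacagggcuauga
miR-10b: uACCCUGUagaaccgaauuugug
miR-206: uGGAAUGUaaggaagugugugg
miR-133b: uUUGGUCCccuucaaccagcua
let-7a and let-7f differ at 1 of 22 positions, as do let-7a and let-7c, and miR-107 and miR-103 differ at 1 of 23. Probes for such near-identical miRNAs can bind one another's target, and the amount of this was not tested. miR-322 lies on chromosome X at 53054306 to 53054327 within the span of the noncoding gene C430049B03Rik. miR-10b lies on chromosome 2 at 74726074 to 74726096 within the spans of Hoxd3 and Hoxd4. miR-449a lies within Cdc20b on chromosome 13 at 113037549 to 113037570, and miR-107 within Pank1 on chromosome 19 at 34820700 to 34820722. miR-215 lies within Iars2 on chromosome 1 at 185313610 to 185313630. miR-192 on chromosome 19 at 6264857 to 6264877 and miR-34a on chromosome 4 at 150068473 to 150068494 lie in no annotated protein-coding or long noncoding gene of that table.

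The signal of Reference 1 was spread over many more miRNAs than that of Reference 2. Shares were taken from the total signal that the scanner software gives for each miRNA after background subtraction, with values below 0 set to 0. A share does not depend on the scaling between arrays, but each probe has its own brightness, so shares and ranks describe array signal and not numbers of molecules. The summed signal was 88394 and 91140 in Reference 1 and 129700 and 133804 in Reference 2. The brightest miRNA held 4.70% and 4.64% of it in Reference 1 (let-7a) and 13.703% and 14.6% in Reference 2 (miR-451, a miRNA of red blood cells). The arrays of each reference lay close together and the references did not overlap. The 10 brightest held 33.9% and 33.6% in Reference 1 and 56.6% and 57.1% in Reference 2. In Reference 1, 20 miRNAs on each array made up 50% of the signal, against 8 on each array of Reference 2. Reaching 90% took 87 and 89 miRNAs in Reference 1 and 45 and 44 in Reference 2. With 2 arrays against 2 no exact permutation test can reach p = 0.05, and no test was made of these shares.

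**Figure D1:**
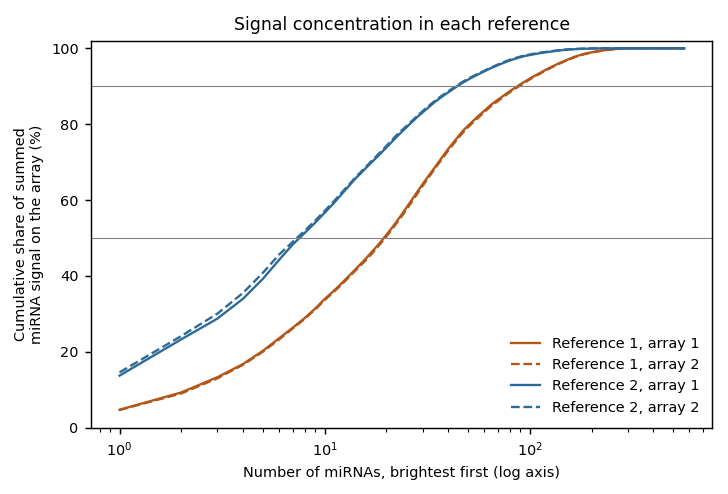
Cumulative share of the summed miRNA signal (%) against the number of miRNAs, brightest first on a log axis, with 1 line per array and grey lines at 50% and 90%. Both Reference 2 lines run above both Reference 1 lines, crossing 50% at 8 miRNAs against 20 in Reference 1.

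More miRNAs were detected in Reference 1. A miRNA was called above background on an array where at least 50% of the spots of a probe carried the software's flag for a signal well above background. By this rule 233 miRNAs were above background on both arrays of Reference 1, against 162 on both arrays of Reference 2. On all 4 arrays 144 were above background, 87 were so on both arrays of Reference 1 and on neither of Reference 2, and 15 the other way round. No array had a signal above background for 305 miRNAs. Of all mouse spots, 35.6% and 36.8% were above background in Reference 1 and 26.2% and 25.6% in Reference 2. The lowest signal that passed was not equal. On the normalized log2 scale described next, the dimmest probe above background had 5.51 and 5.52 in Reference 1, against 5.78 and 6.05 in Reference 2. A dim normalized signal of the same level could thus pass in Reference 1 alone, and how far this shaped the counts was not tested. A second rule set a threshold on each array's unnormalized signal from its negative controls. This threshold was 52.7 and 48.7 in Reference 1, against 52.2 and 54.3 in Reference 2. By it 242 miRNAs were above background on both arrays of Reference 1 and 164 on both arrays of Reference 2.

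The order of the miRNAs by signal was similar between the references but not the same at the top. Ranks and differences rest on log2 median signals of the spots, which a cyclic lowess brought to a common scale among the 4 arrays, and a miRNA's value is the median of its spots. Across the 566 miRNAs, which are not independent and share probe brightness and background, Spearman's rho was 0.875 between the references' means, against 0.989 and 0.987 between the arrays of Reference 1 and of Reference 2. Over the 144 miRNAs above background on all arrays it was 0.774. The 10 brightest shared 4 miRNAs, the 20 brightest 15 and the 50 brightest 38. miR-451 ranked first in both pools by this measure. Among the 10 brightest, miR-199a-3p, miR-322, let-7b, let-7c, miR-15a and miR-29a stood only in Reference 1, and miR-1, miR-126-3p, miR-122, miR-133b, miR-22 and miR-24 only in Reference 2.

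The 10 brightest miRNAs of Reference 1 were miR-451, let-7a, let-7f, miR-199a-3p, miR-322, let-7c, miR-15a, let-7b, miR-21 and miR-29a. let-7a, a let-7 family member that restrains cell growth genes, had normalized log2 signals of 11.78 and 11.80 in Reference 1, against 10.99 and 11.03 in Reference 2, a log2 difference of 0.78 with a standard error of 0.04 (limma, adjusted p = 5.87e-18). miR-199a-3p, a miRNA of mesenchymal cells, had 11.27 and 11.26 in Reference 1, against 9.16 and 9.22 in Reference 2, and took rank 4 in Reference 1 and 33 in Reference 2. Its log2 difference was 2.08 with a standard error of 0.04 (limma, adjusted p = 1.73e-26). The arrays of the references did not overlap for either miRNA. miR-322, the mouse counterpart of human miR-424, had 11.22 and 11.28 in Reference 1, against 8.63 and 8.76 in Reference 2, with ranks of 5 and 40. It held 3.48% and 3.58% of the signal in Reference 1 and 0.407% and 0.421% in Reference 2.

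The 10 brightest miRNAs of Reference 2 held miR-451 of blood, miR-1 and miR-133b of muscle, miR-126-3p of vessels and miR-122 of liver, together with miR-21, miR-22, miR-24, let-7f and let-7a. miR-451 had normalized log2 signals of 11.85 and 11.89 in Reference 1, against 13.33 and 13.35 in Reference 2, a log2 difference of -1.47 with a standard error of 0.03 (limma, adjusted p = 1.11e-26). In Reference 1 it came behind let-7a and let-7f in share, at 4.02% and 3.98%. miR-1, which marks heart and skeletal muscle, held 1.71% and 1.62% in Reference 1 and 9.57% and 9.58% in Reference 2, and ranked 17 and 2 by normalized signal. Both miRNAs were above background in both pools and separated them by more than the spread of arrays. miR-22, found at high level in heart and muscle, had 10.54 and 10.55 in Reference 1, against 11.62 and 11.46 in Reference 2. miR-24, a widely expressed miRNA, had 10.08 and 10.09 in Reference 1, against 10.997 and 11.06 in Reference 2.

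**Figure D2:**
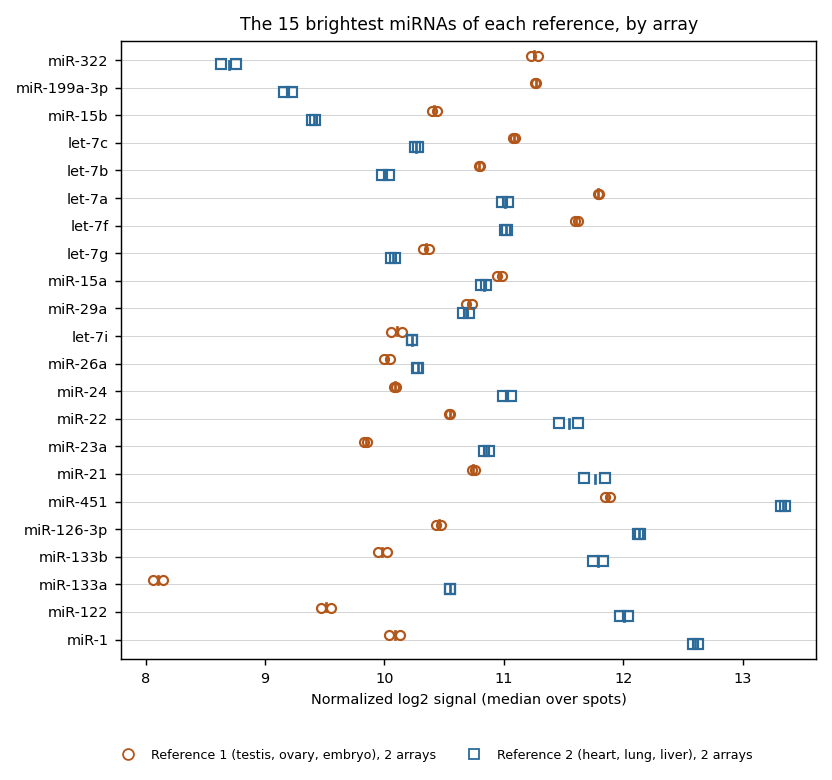
Normalized log2 signal on each array for the 15 brightest miRNAs of each reference, ordered by the difference, with circles for the 2 arrays of Reference 1, squares for the 2 arrays of Reference 2 and short lines for means. miR-322 stands highest in Reference 1 relative to Reference 2 among these miRNAs (2.56) and miR-1 lowest (-2.52), while miR-29a overlaps.

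Of the 566 miRNAs, 58.1% differed between the references in limma at a Benjamini-Hochberg adjusted p under 0.05, with 169 higher in Reference 1 (29.9%) and 160 lower (28.3%). Among the 261 miRNAs above background on at least 1 array, 129 were higher (49.4%) and 109 lower (41.8%). Most differences were small. Of those called, 30 higher and 42 lower miRNAs moved by over 2-fold, and 7 and 9 by over 4-fold, whereas 137 of those called differed by less than 0.25 on the log2 scale. Dim miRNAs differed least, with a median size of 0.04 for the 364 miRNAs that stayed below 6 in both references, 0.59 for the 92 between 6 and 7, and 0.90 for the 40 between 7 and 8. Above this there was no steady growth, with 1.01 between 8 and 9, 0.79 between 9 and 10 and 1.00 over 10. Background was not subtracted, which understates differences of dim miRNAs. Staying below 6 in both references also limits the size by itself, and the largest in that group was 0.59.

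The zero line of these differences depends on the scaling, and under some scalings bright miRNAs shifted in the opposite direction to miRNAs above background as a whole. Against cyclic lowess, scaling the processed signal to the 75th percentile of detected probes moved the median of the 261 miRNAs above background by 0.56 and that of the 24 miRNAs with a mean over 10 by -0.52. With the 75th percentile over all probes these shifts were -0.90 and -2.05. Median centering moved them by 0.37 and -0.33. Of mouse spots in Reference 2, 26.2% and 25.6% were above background, so the 75th percentile over all probes fell near background there. How far this shaped the shifts was not tested. Of the 238 called miRNAs above background, 37 changed sign under at least 1 of 6 other scalings, and 65 when the percentile over all probes was counted too. With that percentile there were 111 higher and 160 lower miRNAs, with the percentile over detected probes 175 and 81, with median centering 178 and 320, and with no normalization 164 and 73. let-7a, let-7b and let-7c kept their sign in all but the percentile over all probes, and let-7f and let-7g lay below 0 with the percentile over detected probes as well, at -0.12 and -0.11. The differences of miR-199a-3p, miR-322, miR-10b, miR-451, miR-1, miR-21, miR-22 and miR-24 kept their sign in every scaling run.

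**Figure D3:**
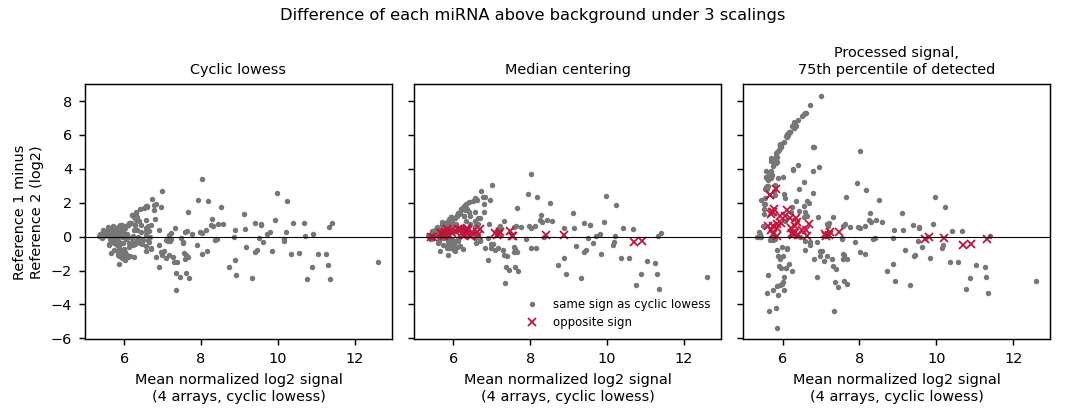
Reference 1 minus Reference 2 (log2) against mean normalized log2 signal for the 261 miRNAs above background, under 3 scalings, with red crosses where the sign is opposite to that with cyclic lowess. Crosses lie among dim miRNAs above 0 and among bright miRNAs below 0, and the steep branches on the right are miRNAs at the floor of 1 in Reference 2 or Reference 1.

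Families with a shared seed held different shares of the signal in the pools. The 9 let-7 miRNAs with the seed GAGGUAG held 20.8% and 20.5% of the signal in Reference 1 and 12.2% and 12.0% in Reference 2, the largest share of the seed groups in both pools. Of these, 7 were higher and 2 lower, with a median difference of 0.59 against -0.01 over all miRNAs, and let-7i had 10.15 and 10.06 in Reference 1, against 10.23 and 10.23 in Reference 2. That median lay at 0.06 with the percentile over detected probes and at -1.48 with the percentile over all probes. The 4 matched miRNAs with the seed AGCAGCA, which restrain cell cycle genes, held 9.40% and 9.45% in Reference 1 and 4.01% and 3.96% in Reference 2. All 4 were higher, but by 0.13 to 2.56, and their median of 0.58 lay at -1.23 with the percentile over all probes. miR-195 and miR-497 of the same family, which were not matched, differed by 0.72 and 0.71. miR-322 led the group, and miR-15b had 10.40 and 10.44 in Reference 1, against 9.40 and 9.42 in Reference 2. miR-15a and miR-16 differed by 0.13 and 0.16 and both lay below 0 in the deposited values and with either percentile, miR-15a also with median centering and with no normalization.

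The seed GGCAGUG joins miR-34a, a known target of p53, with miRNAs of the testis and of ciliated cells. Its 4 matched members held 2.67% in each array of Reference 1 and 0.414% and 0.404% in Reference 2, and 3 of 4 were higher. Of their relatives without a match, miR-34c was higher by 2.07 and miR-449b was not called, at -0.02. miR-449a had 9.01 and 9.02 in Reference 1, against 6.80 and 6.89 in Reference 2, and miR-34a had 8.77 and 8.82 in Reference 1, against 8.07 and 8.08 in Reference 2. miR-34a thus had a log2 difference of 0.72 with a standard error of 0.05 (limma, adjusted p = 2.38e-14), smaller than the 2.17 of miR-449a. The 3 miR-29 miRNAs, known to act on collagen messages, held almost the same share in both pools, 4.21% and 4.16% in Reference 1 and 4.40% and 4.36% in Reference 2. Their differences ran from -1.40 to 0.03, with miR-29a at 10.68 and 10.74 in Reference 1, against 10.71 and 10.66 in Reference 2, and its sign turned with scaling. All 10 miRNAs of the miR-30 list, both arms included, were lower, beside 28.3% lower over all miRNAs, and miR-30a had 7.82 and 7.82 in Reference 1, against 9.57 and 9.69 in Reference 2.

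A shared seed did not always mean a shared direction. miR-192, abundant in liver, had 6.51 and 6.57 in Reference 1, against 8.61 and 8.74 in Reference 2, a log2 difference of -2.14 with a standard error of 0.05 (limma, adjusted p = 8.34e-26). miR-215, which has the same seed and differs from miR-192 at 3 of 21 positions, had 5.88 and 5.79 in Reference 1, against 5.62 and 5.58 in Reference 2. miR-215 was above background on both arrays of Reference 1 and on neither of Reference 2, with a log2 difference of 0.24 with a standard error of 0.03 (limma, adjusted p = 1.26e-07). Its dim signal gives no fold. miR-206 and miR-133b, miRNAs of muscle, lie within the same long noncoding gene, Lincmd1, on chromosome 1 at 20679055 to 20679076 and at 20682834 to 20682855. miR-206 had 7.83 and 7.84 in Reference 1, against 5.62 and 5.56 in Reference 2, where it was not above background. miR-133b had 10.02 and 9.95 in Reference 1, against 11.83 and 11.75 in Reference 2. The directions of these neighbours were opposite, and how far the miR-133b probes also bound the near-identical miR-133a was not tested.

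The lists of tissue miRNAs also differed in their share of the signal, which does not tell the tissue of a pool that it came from. The 239 miRNAs of all tissue lists held 34.4% and 34.5% in Reference 1 and 48.7% and 49.4% in Reference 2, while the 149 miRNAs of broad families held 53.6% and 53.3% in Reference 1 and 38.3% and 37.7% in Reference 2. The 8 striated muscle miRNAs held 4.05% and 3.89% in Reference 1 and 18.4% and 18.2% in Reference 2, and the 3 red blood cell miRNAs 4.15% and 4.11% in Reference 1 and 14.2% and 15.1% in Reference 2. Neither list was absent from Reference 1. The 36 male germline and gonad miRNAs held 5.08% and 5.22% in Reference 1 and 0.316% and 0.314% in Reference 2, and the 71 miRNAs of the imprinted Dlk1-Dio3 region 3.96% and 4.05% in Reference 1 and 0.126% and 0.106% in Reference 2. The 11 fetal X-linked miRNAs, led by miR-322, held 4.28% and 4.42% in Reference 1 and 0.459% and 0.467% in Reference 2. The 3 liver miRNAs held 1.18% and 1.13% in Reference 1 and 5.51% and 5.35% in Reference 2. Without background subtraction the Dlk1-Dio3 share in Reference 2 was 2.60% and that of the germline list 1.51%, since each dim probe then adds background. None of 22 miRNAs of pluripotent cells was above background on any array.

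**Figure D4:**
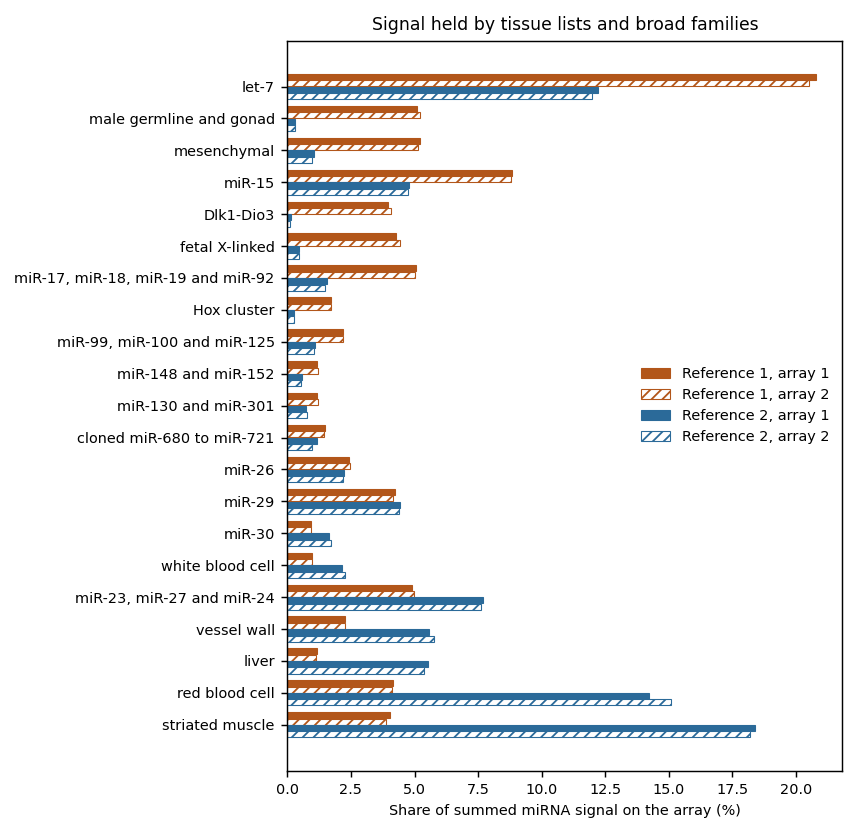
Share of the summed miRNA signal (%) held by each tissue list or broad family with at least 1% on an array, with a bar per array, filled for array 1 and hatched for array 2. Lists run downward by Reference 1 minus Reference 2, with let-7 at the top (20.8% and 20.5% against 12.2% and 12.0%) and striated muscle at the bottom (4.05% and 3.89% against 18.4% and 18.2%).

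Among miRNAs whose precursors lie within 10 kb of each other on a strand, several groups held many calls in 1 direction, beside 29.9% higher and 28.3% lower over all miRNAs. On chromosome 12, 31 matched miRNAs lie between 109709060 and 109747960, and 23 of these were higher and 3 lower. miR-410 of this group had 8.31 and 8.37 in Reference 1, against 5.67 and 5.62 in Reference 2, where it was not above background. Its measured log2 difference was 2.69 (limma, adjusted p = 3.26e-29). As a bound, which that p-value does not test, it was at least 5.37-fold higher in Reference 1. The bound takes, for each array of Reference 2, the lowest signal of any probe above background there, or that of miR-410 itself if higher. A second group of 18 matched miRNAs lies upstream on that chromosome, between 109563692 and 109595388, of which 10 were higher and 1 lower. Its members miR-127 and miR-431 were at least 3.50-fold and 2.93-fold higher in Reference 1. On chromosome X, 8 of 9 matched miRNAs between 53047997 and 53054349, the group of miR-322, were higher and none was lower, and of 12 matched between 66776757 and 66839125, known from the testis, 10 were higher and none was lower. On chromosome 14, the miR-17 group between 115043671 and 115044506 had 6 of 9 matched miRNAs higher and held 3.36% and 3.31% in Reference 1 and 0.835% and 0.800% in Reference 2. Its median of 0.37 turned to -0.16 with the percentile over all probes. Its members miR-19b and miR-92a are also counted in a group on chromosome X between 52741693 and 52742567. Their signal, and so the share above, cannot be assigned to chromosome 14 alone.

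Other groups were lower in Reference 1. On chromosome 8, miR-23a, miR-27a and miR-24 lie between 84208518 and 84208921, and 4 of the 5 matched miRNAs there were lower, with none higher. miR-23a had 9.83 and 9.86 in Reference 1, against 10.83 and 10.87 in Reference 2. That group held 3.70% and 3.77% in Reference 1 and 6.14% and 6.06% in Reference 2, and its median of -0.94 stayed below 0 in every scaling run. miR-24 is also counted in a group on chromosome 13 between 63300484 and 63301275, so its signal cannot be assigned to chromosome 8 alone. The seed groups of miR-181 and miR-99, with medians of -0.36 and -0.20, lay above 0 under the percentile over detected probes, under median centering and where arrays were left unnormalized.

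Outside the tissue lists and broad families stood 178 miRNAs, of which 61 were above background. They held 12.0% and 12.2% of the signal in Reference 1 and 13.0% and 12.8% in Reference 2. Of the 61, 14 were higher and 40 lower, against 49.4% higher and 41.8% lower over all miRNAs above background. This lean follows from how the set was made and is no result about its members. The tissue lists were drawn with earlier results of these data known. They took out 86 higher and 33 lower miRNAs above background. The counts also rest on the zero line of cyclic lowess. miR-203, known from the epidermis, had 7.08 and 7.04 in Reference 1, against 6.09 and 6.04 in Reference 2, a log2 difference of 1.00 with a standard error of 0.04 (limma, adjusted p = 5.50e-20). miR-205, a miRNA of stratified epithelia, had 6.59 and 6.59 in Reference 1, against 5.79 and 5.74 in Reference 2. Its measured log2 difference was 0.83 (limma, adjusted p = 4.31e-19). No array of Reference 2 had miR-205 above background, which makes it at least 1.59-fold higher in Reference 1. These skin miRNAs had the largest rises in this set, and the skin epithelium list of 3 held 0.289% of the signal on each array of Reference 1 and 0.0117% and 0.00926% in Reference 2. By contrast, the 5 miR-200 miRNAs of epithelia that were above background were all lower under cyclic lowess. The share of the miR-200 list was nearly the same in both pools, at 0.469% and 0.500% in Reference 1 and 0.511% and 0.535% in Reference 2.

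miR-107 and miR-103, which share a seed and lie in genes for pantothenate kinases, were both higher. miR-107 had 9.79 and 9.79 in Reference 1, against 8.985 and 8.997 in Reference 2, and miR-103 had 8.13 and 8.13 in Reference 1, against 7.93 and 7.88 in Reference 2. The difference was 0.80 for miR-107 and 0.22 for miR-103 (standard error 0.05 each), and both lay below 0 with the percentile over all probes, as did miR-34a, miR-652 and miR-1224. miR-193b had 7.04 and 7.03 in Reference 1, against 6.35 and 6.34 in Reference 2, whereas miR-193 had 5.67 and 5.63 in Reference 1, against 6.81 and 6.87 in Reference 2. These relatives thus differed by 0.69 and -1.19, and neither sign turned in any scaling run. The other miRNAs of this set with the largest rises were miR-652 (0.40), miR-672 (0.39), miR-1224 (0.27) and miR-215, of which miR-672 and miR-215 were above background only in Reference 1.

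Under cyclic lowess and with the lists as drawn, the lower calls of this set included larger differences than the higher calls. Both arms of the miR-378 hairpin, which lies in a gene for a regulator of mitochondrial metabolism, were lower. miR-378 had 6.93 and 6.93 in Reference 1, against 8.19 and 8.28 in Reference 2, and miR-378* had 5.31 and 5.36 in Reference 1, where it was not above background, against 6.73 and 6.68 in Reference 2. The measured log2 difference of miR-378* was -1.37 (limma, adjusted p = 7.02e-25), and as a bound it was at least 2.28-fold lower in Reference 1. Both arms of the miR-22 hairpin fell as well, with miR-22 at -0.996 and miR-22* at -1.22. miR-21, a widely expressed miRNA that rises in many stressed tissues, had 10.73 and 10.76 in Reference 1, against 11.67 and 11.85 in Reference 2, and held 2.82% and 2.89% of the signal in Reference 1 and 5.24% and 5.91% in Reference 2. miR-22 and miR-21 were the only miRNAs of this set among the 15 brightest of either reference. miR-582-5p, which lies within Pde4d, had 5.28 and 5.34 in Reference 1, where it was not above background, against 6.55 and 6.56 in Reference 2, at least 2.05-fold lower in Reference 1. miR-185 differed by -1.11, and the related miR-101a and miR-101b by -1.01 and -1.17.

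**Figure D5:**
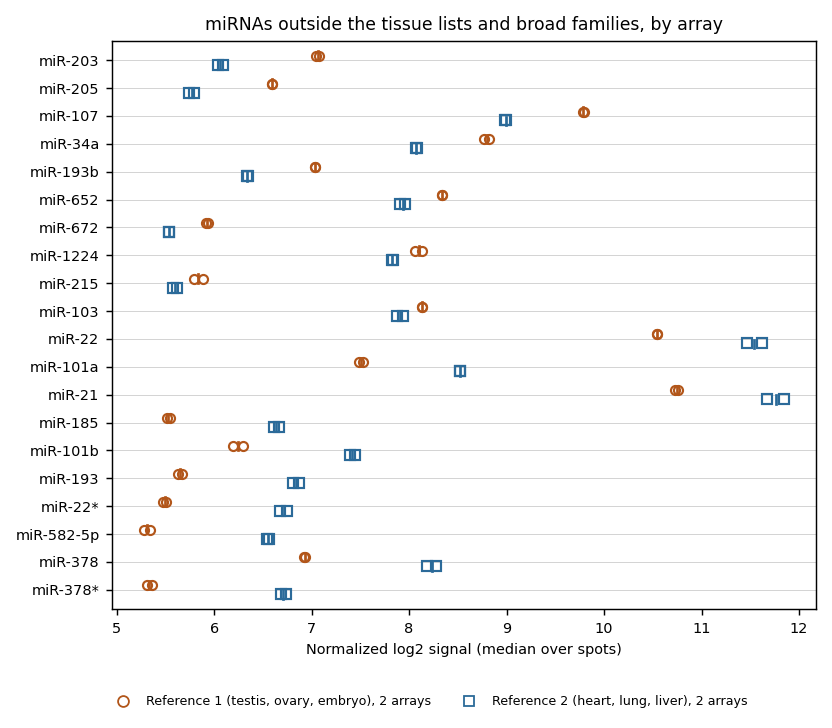
Normalized log2 signal on each array for the 10 highest and 10 lowest called miRNAs outside the tissue lists and broad families, with circles for the 2 arrays of Reference 1, squares for the 2 arrays of Reference 2 and short lines for means. The arrays of the references do not overlap, as the rule that chose these 20 requires, and the differences run from 1.00 for miR-203 to -1.37 for miR-378*.

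The smaller lists in this set held 62 miRNAs, of which 36 were above background, and 10 of these were higher and 21 lower, beside 49.4% and 41.8% over all miRNAs above background. Of the lipid metabolism list, named for targets of its miRNAs, all 4 above background were lower, with miR-33, which lies in a gene for a sterol regulator, at 5.54 and 5.56 in Reference 1, against 6.17 and 6.20 in Reference 2. miR-31 had 5.59 and 5.56 in Reference 1, against 6.59 and 6.35 in Reference 2. miR-28 and miR-151-5p were lower by similar amounts, -0.54 and -0.50. The hypoxia-induced miR-210 had 6.20 and 6.26 in Reference 1, against 6.22 and 6.22 in Reference 2, and its 95% interval of -0.06 to 0.08 covers cyclic lowess alone, since the difference was 0.23 in the deposited values, 0.60 where arrays were left unnormalized, 0.56 with median centering and 1.47 with the percentile over detected probes. miR-140, known from cartilage, had 7.82 and 7.86 in Reference 1, against 7.65 and 7.71 in Reference 2, while the other arm of its hairpin, miR-140*, had 7.36 and 7.41 in Reference 1, against 7.66 and 7.70 in Reference 2. The arms thus differed in sign, by 0.16 and -0.30, but that of miR-140 turned with the percentile over all probes and that of miR-140* with median centering and with no normalization. Of 5 miRNAs above background from an intron of the X-linked gene Clcn5, none was higher and 3 were lower by 0.22 at most. The signs of 4 of these 5 turned with scaling, as did those of miR-365 (-0.40), miR-7a (-0.33), miR-425 (-0.06) and miR-455 (-0.02).

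The brightest of the 87 miRNAs above background in Reference 1 alone were miR-410, miR-206, miR-127, miR-300 and miR-201, and the brightest of the 15 in Reference 2 alone were miR-378*, miR-208b, miR-582-5p, miR-29c* and miR-24-2*. At the extremes of the differences, miR-10b, of a Hox gene cluster, had 9.69 and 9.73 in Reference 1, against 6.35 and 6.29 in Reference 2, with ranks of 27 and 134. The cardiac miR-499, which lies within the myosin gene Myh7b on chromosome 2 at 155622893 to 155622913, had 5.81 and 5.74 in Reference 1, against 9.01 and 8.84 in Reference 2. Both were above background on all 4 arrays. The testis miRNA miR-34c had 9.19 and 9.23 in Reference 1, against 7.06 and 7.22 in Reference 2. On the lower side, the red cell miRNA miR-144 had 6.51 and 6.42 in Reference 1, against 8.88 and 8.92 in Reference 2, and the arms of the leukocyte hairpin, miR-142-3p and miR-142-5p, differed by -2.28 and -2.17. miR-133a* of muscle differed by -2.35. In each of these the arrays of the references did not overlap, as the rule that chose them requires.

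The largest moves in rank came from miRNAs near background in 1 pool or in both. miR-206 had rank 56 in Reference 1 and 240 in Reference 2, miR-410 rank 47 and 220, and miR-465a-3p, of the testis group on chromosome X, rank 79 and 236. The other gains among the 10 largest were those of miR-341, miR-370, miR-299 and miR-433 of the Dlk1-Dio3 region, miR-878-5p and miR-883a-5p of the testis group and the neural miR-9, none of which was above background on an array of Reference 2. The cardiac miR-208b and miR-208a, each within a myosin heavy chain gene, were the dimmest of all 566 in Reference 1, at ranks 566 and 565, against 105 and 147 in Reference 2. miR-208b had 5.06 and 5.07 in Reference 1, against 6.69 and 6.65 in Reference 2, and miR-208a had 5.15 and 5.17 in Reference 1, against 6.10 and 6.17 in Reference 2. miR-150, of lymphocytes, had 5.29 and 5.30 in Reference 1, against 6.35 and 6.41 in Reference 2, and miR-155, induced in activated immune cells, had 5.32 and 5.37 in Reference 1, against 6.09 and 6.18 in Reference 2. miR-208b, miR-208a, miR-150 and miR-155 were not above background in Reference 1, so their values and ranks there are background readings. miR-338-3p and miR-222 were likewise above background only in Reference 2, with differences of -0.96 and -1.04. Ranks among dim miRNAs rest on small differences of signal. The largest gain, that of miR-341, ran from rank 529 in Reference 2 to 184 in Reference 1 on a log2 difference of 0.59. miR-299 moved from rank 502 to 303 on a difference of 0.16 and was above background on 1 array of Reference 1.

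Some bright miRNAs were nearly level between the pools. For 10 bright miRNAs the 95% limma interval of the difference lay within -0.25 to 0.25, among them miR-15a, miR-16, miR-29a and let-7i. miR-130a, with 9.45 and 9.52 in Reference 1, against 9.497 and 9.58 in Reference 2, had rank 29 in both. miR-152 and miR-350 differed by 0.12 and -0.15. miR-106b had 8.79 and 8.93 in Reference 1, against 8.90 and 8.85 in Reference 2, and miR-100 had 7.15 and 7.18 in Reference 1, against 7.15 and 7.16 in Reference 2. The arrays of the references overlapped for miR-130a, miR-106b and miR-100, and miR-26a, of a family found in most tissues, was outside these limits at -0.26. Level here means level under cyclic lowess, since miR-342-3p, with a difference of -0.07, stood at 0.34 with median centering, and miR-15a and miR-29a at -0.46 and -0.51 with the percentile over detected probes.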

How the data were processed

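Labelled RNA of each sample was scanned by the authors with Agilent Feature Extraction 9.5.3.1 (per the labels), and the deposited scanner files hold spot intensity, not yet normalized, with flags for background, saturation and outliers. The authors also deposited log2 values, cyclic lowess normalized without background subtraction, which were used only as an alternative (560 names shared, Pearson correlation at least 0.999 per array with the values used here, column medians from 5.48 to 5.49). With R 4.3.3 and limma 3.58.1, log2 median signals of all 11540 non-control spots on the 4 arrays were brought to a common scale by cyclic lowess, and a miRNA's value was the median of its spots (median 20 spots), and Reference 1 was compared with Reference 2 by lmFit and eBayes with an intensity trend. The number of arrays, 2 per reference, limits the precision. No spot was saturated. Outlier flags covered at most 2.71% of spots on an array and were kept. Of changes simulated in part of the 566 miRNAs for this comparison, 100% were recovered at log2 sizes of 0.5, 1 and 2, with 3 false calls. These changes were added to normalized values with independent noise. The simulation therefore cannot show errors from scaling or from background that was not subtracted, and it does not measure how reliable the calls are. Named miRNAs were the 15 brightest of each reference, the 10 highest and 10 lowest called differences over all miRNAs and outside the lists (above background on both arrays of the brighter reference, with the same sign in all 4 pairs of arrays), the 10 largest rank moves each way, the 10 brightest with an interval within 0.25, members of small lists and the 5 brightest above background in one reference alone. miR-17, miR-19b, miR-92a and miR-27a, named for their groups, and miR-195, miR-497, miR-449b and let-7b*, named as relatives, were chosen after values were seen. The members, lists and rules were chosen with earlier results of these data known, and the lists of guide arms and the medians of seed groups and clusters under other scalings were added after the data were seen. Seed groups and clusters needed at least 3 members matched to RefSeq. Alternatives were other backgrounds, scalings, summaries, detection rules and share measures, a fit with the replicate number as a block, and each array left out in turn. Samples of the other platforms were not analysed here. The unused per-sample columns numbered 0.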

Additional observations from a re-analysis of the deposited data

Results flagged for a closer look

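The array also carries 10 features for miRNAs of a mouse herpesvirus, which stood outside the comparison. For 9 of these no spot was well above background on any array. The feature miR-M1-2 drew attention because a signal appeared in data that the comparison does not use, with 55% and 55% of its spots above background in Reference 1 and 55% and 75% in Reference 2. Its normalized log2 signal was 5.59 and 5.56 in Reference 1 and 6.13 and 6.21 in Reference 2, and what it bound was not tested.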

How the results depend on the processing

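The 329 miRNAs that differed became 498 with median centering, and the 169 higher ones 111 with the 75th percentile over all probes. The 160 lower ones became 320 with median centering, 81 with the percentile over detected probes and 73 with no normalization, and the 109 lower ones above background became 71 with no normalization. Leaving out each array in turn gave 283 to 322 differing miRNAs, with each direction within 1.5 times its full count. Without Reference 1 replicate 2 the calls of miR-15a, let-7i and miR-152 were lost (differences 0.11, -0.085 and 0.11), and without Reference 2 replicate 2 that of miR-152 (0.098), each with its sign kept. The lone array left was assumed to vary like those of the other reference. Same-numbered samples share only a number (correlation of deviations 0.061), and with that number as a replicate block 328 miRNAs differed, 170 higher and 158 lower. From median signal without background subtraction, the brightest 1, 10 and 50 miRNAs held 3.49%, 25.3% and 60.8% in Reference 1 and 11.7%, 45.8% and 75.1% in Reference 2. From summed mean processed signal these were 4.62%, 33.3% and 78.8% in Reference 1, and the brightest 10 and 50 held 55.7% and 91.6% in Reference 2. Spearman's rho was 0.818 with ranks of total gene signal. Among the miRNAs named by rule in this text, some differences called with or without an alternative turned sign. In the deposited values these were miR-15a (-0.24), miR-29a (-0.32), let-7g (-0.019), miR-16 (-0.087), miR-425 (0.10) and miR-455 (0.12). With the mean over probes it was miR-106b (0.10), and with outlier spots left out miR-425 (0.25). Median centering turned miR-15a (-0.28), miR-29a (-0.33), miR-342-3p (0.34), miR-350 (0.26), miR-140* (0.047), miR-365 (0.016), miR-425 (0.42), miR-455 (0.32) and miR-7a (0.094). No normalization turned miR-15a (-0.24), miR-29a (-0.29), miR-106b (0.13), miR-342-3p (0.38), miR-350 (0.30), miR-140* (0.087), miR-365 (0.055), miR-425 (0.46), miR-455 (0.36) and miR-7a (0.13). The percentile over all probes turned let-7a (-1.48), let-7f (-1.65), let-7c (-1.23), miR-15a (-1.99), let-7b (-1.21), miR-29a (-2.04), miR-15b (-0.80), let-7g (-1.65), miR-107 (-0.86), miR-34a (-0.57), miR-652 (-0.89), miR-1224 (-0.97), miR-103 (-1.04), miR-16 (-1.66), miR-152 (-0.90), miR-100 (-0.81) and miR-140 (-0.94). The percentile over detected probes turned let-7f (-0.12), miR-15a (-0.46), miR-29a (-0.51), let-7g (-0.11), miR-16 (-0.12), miR-342-3p (0.29), miR-350 (0.25), miR-425 (0.86), miR-455 (1.23) and miR-7a (0.22). The cause was not tested. With quantile normalization, normexp and eBayes without trend, signs of these named miRNAs turned only where the difference was called in neither fit. They were miR-342-3p (0.073) with quantile normalization, and miR-106b (0.033) and miR-29a (-0.00052) with normexp. Over all 238 called miRNAs above background, 8 turned in the deposited values, 27 with median centering and 1 with normexp. The counts of detected miRNAs stayed within 1.5 times under the other detection rules.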

Other observations

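Both arms of a hairpin were measured for 165 hairpins by name, and for 35 of these both arms were above background on at least 1 array. In 29 of the 35 both arms differed between the references. Both were higher in Reference 1 in 19, both lower in 8 and opposite in 2, where 49.4% of all miRNAs above background were higher and 41.8% lower. The hairpins with opposite calls were those of miR-140, described above, and let-7b, where let-7b differed by 0.79 and the dim let-7b* by -0.49. let-7b turned sign with the 75th percentile over all probes and let-7b* was above background on 1 array. This grouping by hairpin was chosen after the values were seen.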
